A study of Mus musculus with 8 samples.

Results

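The chemokines and their receptors were examined as 1 family of 45 listed genes, 28 ligands and 17 receptors, listed by family membership, not by a threshold on values, though with earlier results of these data known. Of these, 43 had a row among the 20681 genes of the deposited table, and Ccl19 and Ccr6 did not. A further 19 had values too low to test, so 24 members, 16 ligands and 8 receptors, entered the comparison. RNA had been sequenced from whole mouse knee joints in 4 control and 4 knockout libraries. Per the labels, all 8 joints came from Acan-Cre;Loxl2 fl/fl mice. That line carries Loxl2 alleles flanked by loxP sites and a Cre recombinase driven by Acan, the gene of the cartilage proteoglycan aggrecan, so deletion is limited to cells that express Cre. The names of all 8 libraries carry DMM, not spelled out in the labels, a common short form for surgical destabilisation of the medial meniscus. The control libraries are named Vehicle and LOXL2wt and the others KO and LOXL2ko. The age and sex of the mice, the time after injury and any agent the knockout mice received in place of vehicle are not in the labels used here, so such an agent and the deletion cannot be told apart. Nothing in the labels says whether each library is a separate animal, so the p-values measure the spread between these libraries.

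Chemokines are small secreted or membrane-tethered proteins that guide the migration of leukocytes along a gradient. They act through receptors with multiple membrane-spanning helices that couple to inhibitory G proteins, while the atypical receptors (the Ackr genes) bind and remove chemokines without that coupling. In an injured joint, synovial fibroblasts, macrophages, osteoclast precursors, endothelium and blood cells are all known sources or targets of chemokines. In whole-joint RNA, more cells of a type and more RNA per cell cannot be told apart.

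Libraries held 13991000 to 17411617 reads assigned to genes. The label was checked on Loxl2 itself, which had 282, 349, 1135 and 311 normalised reads in control replicates 1 to 4. It had 893, 1468, 960.3 and 1518 in knockout replicates 1 to 4. The transcript was thus higher in the libraries labelled knockout (log2 difference 1.44, SE 0.40, limma adjusted p = 0.0294), the direction opposite to a loss, and control replicate 3 overlapped them. The call was lost in 8 of 18 alternatives, by edgeR (adjusted p = 0.0669), DESeq2 (0.0659) and the replicate block (0.0513) and on omitting any 1 of 5 libraries (controls 1, 2 and 4, knockouts 2 and 4), within 0.00188 to 0.0849, and the difference stayed above 0 in all 18 (1.23 to 1.91). Deletion is limited to cells that express Cre and the RNA is of the whole joint, so a loss in those cells could go unseen. The cause of the rise was not tested. The check thus did not bear out the labels and cannot decide whether they are right. The groups are therefore called by their labels throughout. Cartilage markers were present in every library for Acan (52.3 to 544) and Col2a1 (146 to 2721), and their groups overlapped. Skeletal muscle markers made up a large share of the RNA. The sum of 18 of them was 2564200 to 2745210 in the controls and 1261800 to 1744280 in the libraries labelled knockout, and 8 were called lower and 0 higher. When each library was rescaled without muscle, erythroid, neutrophil and the 50 highest genes, the log2 difference of the median gene moved from 0.00 to 0.15. The rescaling changed the split of all calls from 1732 higher and 1729 lower to 2708 higher and 784 lower, and called 9 members higher and 0 lower.

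Of the 24 tested members, 7 were called higher in the libraries labelled knockout and 0 lower (limma, adjusted p under 0.05). Over all 14949 genes tested the same fit called 11.6% higher and 11.6% lower, together 23.2%. The 7 called members are 29.2% of those tested, so the share called was near that of all genes, while every call was on the higher side. The called ligands were Ccl7, Ccl8, Ccl9, Cxcl16 and Cx3cl1, and the called receptors Ccr1 and Ccr2. These were also the 7 tested members whose groups did not overlap, with 11.7% of all tested genes separated in that direction and 13.4% in the other. The log2 difference was above 0 for 19 of the 24 members and 50.1% of all tested genes, with a median of 0.47 for the members and 0.00 for all. A member entered the test with a value of 10 in any 4 libraries. Ccl7 and Ccl8 reached 10 in 2 control libraries and in all 4 labelled knockout, so they would have entered through the latter alone, while 19 members reached 10 in all 4 controls. For the 0 lower calls, 2 members had an unadjusted p under 0.05, and edgeR and DESeq2 on the recovered reads also called 0 lower. Without knockout replicate 4 the higher calls came to 4, Ccl8, Ccl9, Cxcl16 and Ccr2.

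**Figure D1:**
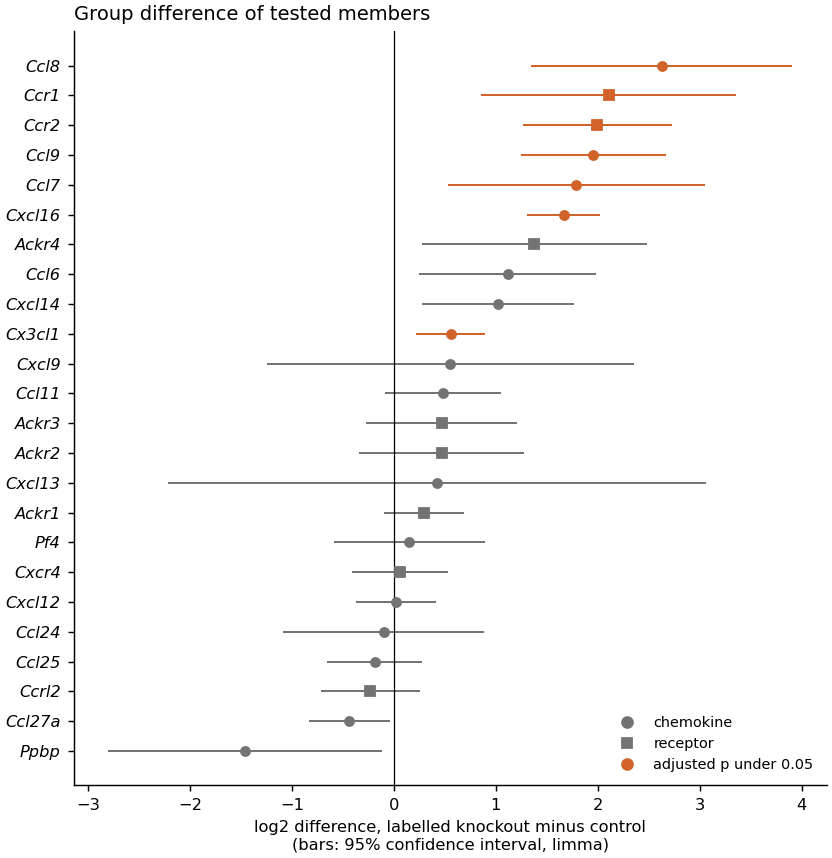
Log2 difference (labelled knockout minus control) on the horizontal axis for each of the 24 tested members on the vertical axis, with 95% confidence intervals from limma; circles are chemokines, squares receptors, and orange marks an adjusted p under 0.05. The 7 called members lie between 0.55 (Cx3cl1) and 2.63 (Ccl8), and the lowest value is -1.47 for Ppbp.

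NF-kB and AP-1 are textbook inducers of chemokine genes, so the promoters of 6 members are printed here to show where such motifs lie. RefSeq entries (GRCm38.p6) were matched for 34 members, including 5 of the 7 called. Each line gives 120 bases that end before the most upstream annotated start, 5′ to 3′ on the gene's strand, for 3 called members and for 3 classical inflammatory chemokines that were too low to test. Capitals mark an NF-kB consensus or an AP-1 motif (TGANTCA) found on either strand.
Ccl8 (chr11:82115065-82115184, plus): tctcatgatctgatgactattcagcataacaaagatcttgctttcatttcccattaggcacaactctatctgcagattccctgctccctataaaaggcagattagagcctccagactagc
Ccl9 (chr11:83578637-83578756, minus): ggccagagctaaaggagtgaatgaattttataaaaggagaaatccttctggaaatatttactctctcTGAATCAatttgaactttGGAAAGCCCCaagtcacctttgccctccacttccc
Ccr1 (chr9:123968693-123968812, minus): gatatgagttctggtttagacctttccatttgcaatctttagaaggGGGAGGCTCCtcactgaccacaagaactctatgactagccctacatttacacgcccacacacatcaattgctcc
Cxcl1 (chr5:90891121-90891240, plus): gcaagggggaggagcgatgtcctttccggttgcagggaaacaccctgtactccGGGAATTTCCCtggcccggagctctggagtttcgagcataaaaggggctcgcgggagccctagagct
Cxcl2 (chr5:90903751-90903870, plus): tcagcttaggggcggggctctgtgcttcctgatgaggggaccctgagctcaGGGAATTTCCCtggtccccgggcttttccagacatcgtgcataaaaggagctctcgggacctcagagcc
Cxcl10 (chr5:92348890-92349009, minus): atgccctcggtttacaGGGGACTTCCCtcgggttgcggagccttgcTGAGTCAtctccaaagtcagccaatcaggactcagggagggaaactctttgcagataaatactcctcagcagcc
In the 250 bases before the start, the NF-kB consensus was found in 9 of the 34 members (26.5%) and in 8.23% of the 27025 genes with an entry. It was found in 2 of the 5 called members (Ccl9 and Ccr1), in 2 of 15 tested members that were not called, and in 4 of 12 low members, and Ccr6, which has no row, also holds it. In Cxcl1, Cxcl2 and Cxcl10 matches on the 2 strands overlap each other. Ccl8 holds neither motif in its printed bases. Cx3cl1 and Ccr2, the other called members with an entry, hold neither in the 250 bases searched. They are not printed because their entries start too far downstream of the most upstream annotated start. The 3 low members were picked by name, so the printed lines do not show how common a motif is. The AP-1 motif was found in 5 of 34 members (14.7%, against 7.82% of all genes), and the interferon-stimulated response element (ISRE) in 3 (8.82% against 3.46%). The ISRE was searched on either strand as letters, GAAA followed by any 2 bases and GAAA again. The PU.1 core GAGGAA was found in 12 of 34 members (35.3% against 25.9%), Ccl8, Cx3cl1 and Ccr1 among the called. These matches describe the letters of the windows only.

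Among the ligands, Cxcl16 had the smallest p. It encodes a transmembrane chemokine that is made by macrophages among other cells and is the ligand of Cxcr6. Its normalised reads were 50.8, 44.4, 60.8 and 55.9 in the control libraries and 161, 169, 152 and 196 in the libraries labelled knockout. Each library labelled knockout lay above every control, and the spread within each group was small. The mean rose from 53.0 ± 6.99 to 169.6 ± 19.1 (SD, n = 4 each), a log2 difference of 1.66 (SE 0.16, limma adjusted p = 0.00397), or 3.17-fold on the log2(value + 1) scale. Cxcl16 (chromosome 11, 70453983 to 70459984, minus strand) overlaps Zmynd15 on the opposite strand, and the use of strand in counting is not stated, so reads of this pair were not necessarily kept apart. Its receptor gene Cxcr6 was low, at 0 to 3.24 in the controls and 0 to 14.5 in the libraries labelled knockout, and was not tested.

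Ccl9, a ligand of Ccr1 known from macrophages and osteoclasts, had 86.5, 60.6, 118 and 187 normalised reads in the controls. The libraries labelled knockout had 435, 275, 489 and 463. The lowest of these, replicate 2, was still above the highest control, replicate 4. Ccl9 rose by a log2 of 1.96 (SE 0.32, limma adjusted p = 0.00549), from 113 ± 54.8 to 415 ± 96.5. Ccl6, an adjacent gene of the same chromosome 11 cluster and another Ccr1 ligand, had 45.4, 38.4, 62.6 and 108 in the controls and 111, 93.2, 259.9 and 101 in the libraries labelled knockout. Control replicate 4 overlapped the other group, and knockout replicate 3 stood apart at the top. Its log2 difference was 1.12 (SE 0.39) and was not called (limma adjusted p = 0.0629). It was called at 1.26 under the scaling without muscle and blood genes (adjusted p = 0.0412), and its adjusted p ranged from 0.0224 to 0.159 over 18 alternatives.

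The monocyte chemoattractant genes lie side by side on chromosome 11, from Ccl2 at 82035571 through Ccl7, Ccl11 and Ccl12 to Ccl8 at 82116799. Of this row, Ccl7 and Ccl8 were called. Ccl8 had 14.1, 9.08, 9.35 and 12.05 normalised reads in the controls and 272, 28.2, 58.7 and 61.6 in the libraries labelled knockout. All 4 libraries labelled knockout were above the controls, with replicate 1 far above the rest. The log2 difference of 2.63 (SE 0.57, limma adjusted p = 0.0131) was the largest of the members, and without knockout replicate 1 it was 1.998 (adjusted p = 0.0150; 5.7e-06 to 0.0378 over 18 alternatives). Ccl7 had 11.9, 2.02, 11.2 and 4.38 in the controls and 21.9, 19.7, 50.02 and 14.1 in the libraries labelled knockout. It was separated but low, resting on 2 to 12 reads in a control library. Its difference was 1.79 (SE 0.57, limma adjusted p = 0.0460), and the call was lost in 9 of 17 alternatives, 6 of which left out a library (control replicate 2 or 4 or any library labelled knockout), with adjusted p-values of 0.0167 to 0.107 over all 17.

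Ccl2 and Ccl12 in the same row were too low to test. Ccl2, the best known ligand of Ccr2, averaged 8.88 ± 5.18 in the controls and 16.7 ± 9.53 in the libraries labelled knockout, with overlap. Ccl12 averaged 2.58 ± 1.38 and 11.0 ± 9.12. Ccl11, the eosinophil attractant eotaxin, had 105, 43.4, 79.4 and 84.3 in the controls and 101, 122, 96.8 and 98.6 in the libraries labelled knockout. Control replicate 1 lay inside the other group, and the difference of 0.48 (SE 0.25) was not called (limma adjusted p = 0.193). Another eotaxin, Ccl24, averaged 15.2 ± 10.5 and 12.5 ± 3.22 (limma adjusted p = 0.890).

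Cx3cl1 encodes fractalkine, a chemokine held on a membrane stalk that binds Cx3cr1. Its values were 105, 82.8, 95.3 and 107 in the controls and 126, 168, 147 and 136 in the libraries labelled knockout. The groups were separated, though the gap between control replicate 4 and knockout replicate 1 was narrow. The rise of 0.55 (SE 0.15, limma adjusted p = 0.0267) was the smallest of the 7. Its call was lost under quantile normalization (adjusted p = 0.138), with the replicate number as a block (0.0824) and without control replicate 2 or knockout replicate 2 or 4 (0.0582 to 0.0720), within a range of 0.00881 to 0.138 over 18 alternatives.

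Cxcl12 and Cxcl14 are homeostatic chemokines, made without inflammation. Cxcl12, which retains haematopoietic cells in bone marrow through Cxcr4, had 3377, 1986, 2364 and 1927 normalised reads in the controls and 2220.0, 2308, 2919 and 2146 in the libraries labelled knockout. These ranges lay within each other, and Cxcl12 alone made up 29.2% to 56.1% of the summed member reads of a library, not scaled by gene length. The difference was 0.02 with a 95% confidence interval from -0.37 to 0.41 (limma adjusted p = 0.951). Cxcl14, a chemokine of fibroblasts and epithelia, had 344, 226, 494 and 232 in the controls and 483, 1077, 394 and 742 in the libraries labelled knockout. Control replicate 3 was above 2 of the libraries labelled knockout. Its difference of 1.02 (SE 0.33) narrowly missed the threshold (limma adjusted p = 0.0517). It passed under 4 of 18 alternatives, the scaling without muscle and blood genes (adjusted p = 0.0370), DESeq2 (0.00814), and leaving out control replicate 3 (0.0249) or knockout replicate 3 (0.0257), with a range of 0.00814 to 0.134.

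The platelet chemokine genes Pf4 and Ppbp are neighbours on chromosome 5 and are both expressed by megakaryocytes. Pf4 had 158, 83.8, 118 and 246 normalised reads in the controls and 104, 212, 138 and 193 in the libraries labelled knockout, with full overlap (difference 0.15, SE 0.33, limma adjusted p = 0.769). Ppbp had 230.4, 65.6, 64.5 and 194 in the controls and 25.9, 126, 45.7 and 20.2 in the libraries labelled knockout. Replicates 1, 3 and 4 of the latter were below all controls, and replicate 2 was not. The difference of -1.47 (SE 0.60) was not called (limma adjusted p = 0.103) except without knockout replicate 2 (-1.99, adjusted p = 0.0352; range 0.0352 to 0.249). The ratio of Ppbp to Pf4 was 0.548 to 1.46 in the controls and 0.105 to 0.593 in the libraries labelled knockout. Of 7 tested megakaryocyte and platelet markers, 6 were lower and 0 were called, and the sum over the list was 273 to 692 in the controls and 168 to 475 in the libraries labelled knockout. Pf4 divided by that sum was 0.191 to 0.502 in the controls and 0.394 to 1.15 in the libraries labelled knockout. For Ppbp the same ratio was 0.149 to 0.395 and 0.0985 to 0.265. Gp1bb of that list has no row in the table. The part of megakaryocytes and platelets in the Pf4 and Ppbp values was not tested.

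The tissue-associated ligands Ccl25 and Ccl27a, known from thymus and gut and from skin, were both lower on average and not called. Ccl27a had 112, 146, 93.5 and 131 in the controls and 76.8, 86.4, 85.9 and 104 in the libraries labelled knockout. Knockout replicate 4 overlapped control replicate 3. The difference of -0.44 (SE 0.18, limma adjusted p = 0.0993) was called without control replicate 3 (-0.56, adjusted p = 0.0497) and under quantile normalization (-0.67, adjusted p = 0.0396), in a range of 0.0396 to 0.242. Ccl27a overlaps Il11ra1 on the opposite strand and has close copies in the mouse genome, so its count is uncertain. Ccl25, which overlaps Elavl1, averaged 79.7 ± 14.7 and 69.7 ± 13.2 (limma adjusted p = 0.538).

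**Figure D2:**
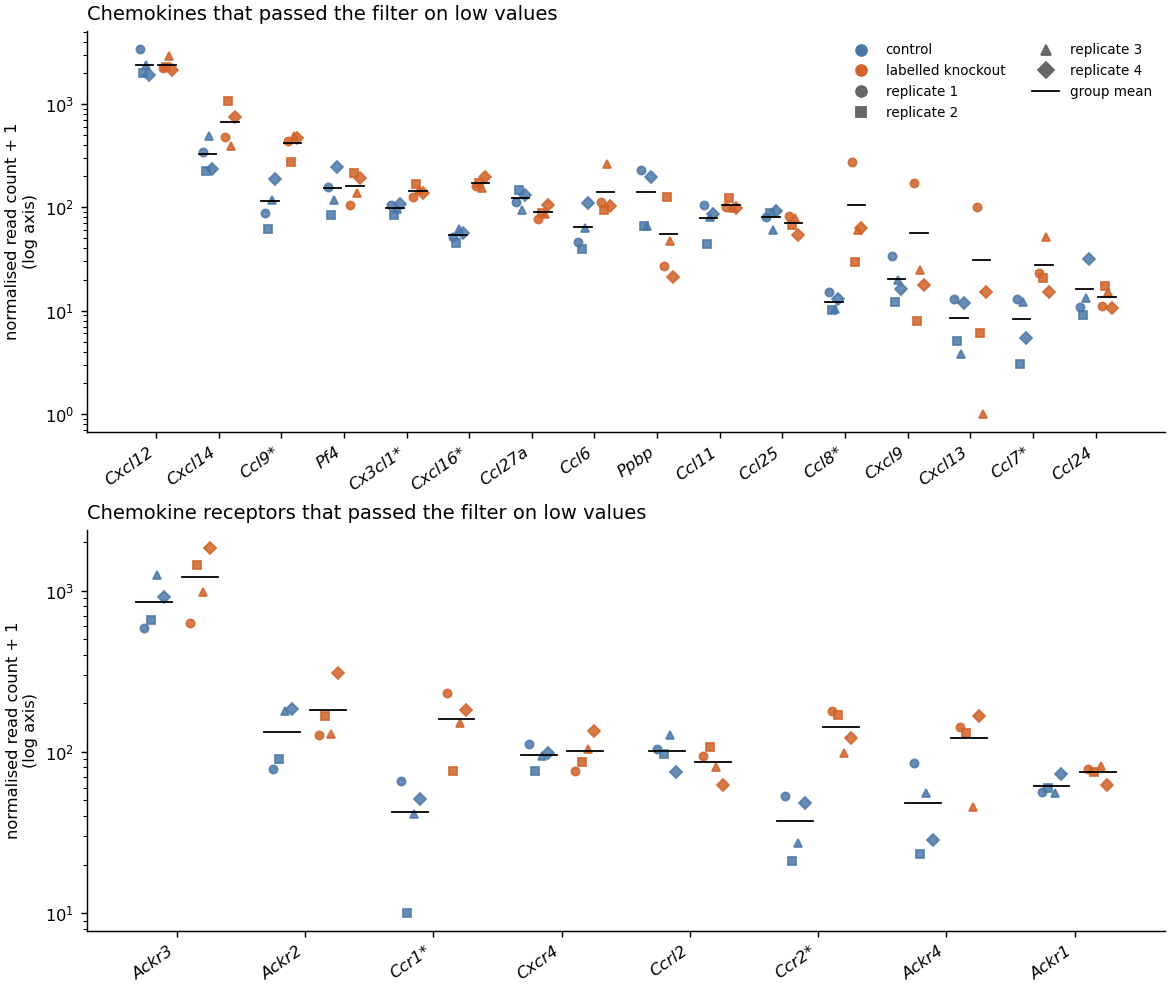
Normalised read count + 1 on a log axis for each tested ligand (upper panel) and receptor (lower panel); each point is 1 library, its shape gives the replicate number, short lines are group means, and an asterisk marks a call. Cxcl16 shows tight, separate groups near 53.0 and 169.6, whereas Ccl8, Cxcl9 and Cxcl13 have 1 high library, knockout replicate 1.

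Among the signalling receptors, Ccr2 brings monocytes out of bone marrow and into injured tissue. It had 51.9, 20.2, 26.2 and 47.1 normalised reads in the controls and 178, 169, 97.9 and 121 in the libraries labelled knockout. The groups were separate, and the difference was 1.99 (SE 0.33, limma adjusted p = 0.00556). Ccr1, a receptor of monocytes, neutrophils and osteoclast precursors, had 64.9, 9.08, 40.2 and 50.4 in the controls. Its values were 231, 75.3, 150.1 and 179.6 in the libraries labelled knockout. Knockout replicate 2 was only just above control replicate 1, and control replicate 2 was far below the other controls. Ccr1 rose by 2.11 (SE 0.56, limma adjusted p = 0.0251), a call lost without knockout replicate 1 (adjusted p = 0.0645) or 4 (0.0721), within 0.000493 to 0.0721 over 18 alternatives. Cxcr4, the receptor of Cxcl12, averaged 94.3 ± 15.1 and 99.6 ± 26.2, a difference of 0.06 with a 95% confidence interval from -0.41 to 0.53 (limma adjusted p = 0.868).

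Of the 5 atypical or decoy receptors, none was called. Ackr3, which clears Cxcl12, had 587, 660.2, 1253 and 909 normalised reads in the controls and 627, 1445, 972 and 1832 in the libraries labelled knockout. Both groups were wide and overlapped (difference 0.47, SE 0.33, limma adjusted p = 0.330). Ackr4, which removes the ligands of Ccr7 and Ccr9, had 84.4, 22.2, 54.2 and 27.4 in the controls and 142, 129, 44.6 and 165 in the libraries labelled knockout. Replicates 1, 2 and 4 labelled knockout were above all controls, and replicate 3 was among the controls. Its difference of 1.38 (SE 0.49) was not called (limma adjusted p = 0.0696). It was called by DESeq2 (adjusted p = 0.0177), without control replicate 1 (0.0363) and without knockout replicate 3 (0.0174), in a range of 0.0174 to 0.177. Ackr4 overlaps Acad11 on the opposite strand. Ackr2, a scavenger of inflammatory CC chemokines, had 76.8, 88.8, 179 and 184 in the controls and 127, 166, 127 and 308 in the libraries labelled knockout, with overlap (difference 0.47, SE 0.36, limma adjusted p = 0.374). Ackr1, known from venules and red cells, averaged 60.1 ± 8.37 and 73.6 ± 8.35 (limma adjusted p = 0.254), and lies inside the annotated span of Cadm3 on the same strand. Ccrl2, which presents chemerin, averaged 99.8 ± 21.3 and 85.0 ± 19.0 (limma adjusted p = 0.465).

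Levels of different genes were ranked per kilobase of annotated exon, while the shares and ratios given elsewhere were not scaled by length. The length was the union of exons over all transcripts of a gene, which can exceed that of any 1 transcript and so lower the level. On that scale Ackr3 (309 normalised reads per kb, mean of 8 libraries), Cxcl12 (294) and Cxcl14 (273) were the highest members, followed by Pf4 (217). Ccl8 came next by its mean, but it stood at 21.8 in the controls and 206 in the libraries labelled knockout, with knockout replicate 1 alone at 533. The first 3 overlapped widely across libraries, from 175 to 547 for Ackr3, 236 to 413 for Cxcl12 and 124 to 589 for Cxcl14. Ccr9 was lowest at 0.637. Before length scaling Cxcl12 (mean 2406) was above Ackr3 (1036), and Cxcl2 (2.48) was below Ccr9 (6.53), so these ranks depend on the length used. The 43 members together took 0.0230% to 0.0373% of the summed values of a control library and 0.0452% to 0.0555% of a library labelled knockout. The share rose partly because the summed values were lower in the latter, at 13253746 to 15225143 against 16157355 to 17332778. The member sum itself had a mean of 5140 in the controls and 6932 in the libraries labelled knockout.

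The 19 low members, 11 ligands and 8 receptors, had means of 2.48 (Cxcl2) to 15.5 (Ccl17) over the 8 libraries and were not tested. They include the neutrophil attractants Cxcl1, Cxcl2 and Cxcl5 with their receptor Cxcr2, the last at 9.20 ± 5.72 in the controls and 6.38 ± 9.68 in the libraries labelled knockout. The lymphoid receptors Ccr7, Ccr9, Ccr10, Cxcr3, Cxcr5 and Cxcr6 and the eosinophil receptor Ccr3 were also in this range. The mean was higher in the libraries labelled knockout for 18 of the 19, a larger share than the 63.3% of the 5732 untested genes of the table. The groups were separate for 1 low member, Ccl3, against 3.82% of untested genes in that direction and 1.15% in the other. Ccl3, a macrophage ligand of Ccr1, had 1.08, 1.01, 3.74 and 2.19 normalised reads in the controls and 13.96, 7.70, 8.70 and 6.16 in the libraries labelled knockout. It was called when no filter on low values was applied, and rests on 1 to 4 reads per control library.

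Some members were high in 1 library labelled knockout. These genes were picked after their values were seen, so the pattern is a description. Of 42 members that reached 10 in a library of that label, 10 were in knockout replicate 1 at least 2 times the next such library. In knockout replicate 2 there were 2, Cxcl2 and Ppbp. The rule was not applied to the controls or to all genes, so how common such a peak is was not tested. The 10 in replicate 1 included the interferon-induced pair Cxcl9 (173, the other 3 at 6.84 to 23.9) and Cxcl10 (26.9, against 5.99 to 11.4). Their T cell receptor Cxcr3 (21.9, against 2.17 to 5.13) was among them too. The B cell attractant Cxcl13 (101, against 0 to 14.1) and the T cell chemokine Ccl5 (60.8, against 1.09 to 5.28) were also highest in that library. The summed T and NK cell markers of that library were 206, against 48.4 to 76.1 in the other 3 and 47.7 to 146 in the controls. Gzmb and Ncr1 of that list have no row in the table. In knockout replicate 3, 5 members stood out in this way, among them Ccl17 (104, against 0 to 7.70) and Ccl22 (44.6, against 5.98 to 11.1), dendritic cell and macrophage ligands of Ccr4. The dendritic cell markers summed to 438 there, against 262 to 318 in the other libraries of that label and 191 to 280.1 in the controls. The part of these cells was not tested. The log2 differences of Cxcl9 (0.55, SE 0.81) and Cxcl13 (0.42, SE 1.18) were not called, and both turned negative without knockout replicate 1 (-0.33 and -0.71).

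**Figure D3:**
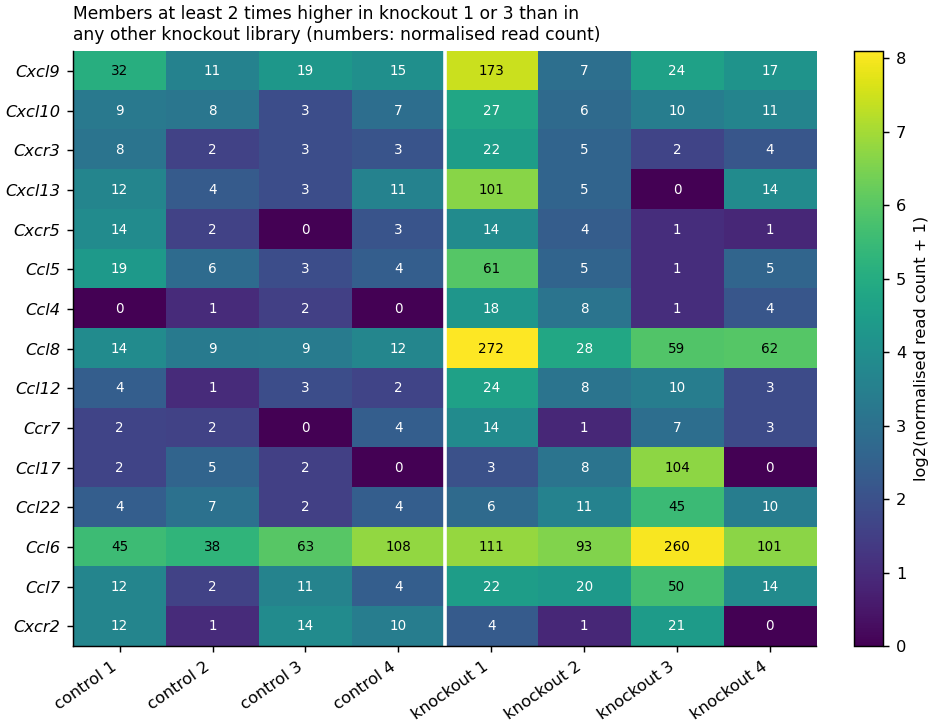
Heat map of the 15 members that were at least 2 times higher in knockout replicate 1 or 3 than in any other library labelled knockout; columns are the 8 libraries, colour is log2(normalised read count + 1), and the printed numbers are normalised read counts. Cxcl9, Cxcl13, Ccl5 and Ccl8 peak in knockout replicate 1 (173, 101, 60.8 and 272), and Ccl17, Ccl22 and Ccl6 in replicate 3 (104, 44.6 and 259.9).

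Macrophage markers, like the called members, were higher in the libraries labelled knockout, though within a group most called members did not follow the order of the marker sum. Of 14 such markers, all tested, 10 were called higher and 0 lower, with a median log2 difference of 1.21. Trem2 (log2 difference 1.49), C1qb (1.28), Cd14 (1.17) and Cd68 (1.71) had the smallest p-values of the list (limma adjusted p = 0.00397 to 0.00687). The sum of the 14 was 3077 to 7052 in the controls and 10629 to 14986 in the libraries labelled knockout. When 8 members were divided by that sum, a ratio chosen after the values were seen, the groups overlapped for each, for some through 1 library. Per 1000 reads of macrophage markers, Cxcl16 stood at 8.40 to 14.4 in the controls and 13.1 to 14.7 in the libraries labelled knockout. Only control replicate 2 reached the range of the latter, with the other controls at 8.40 to 11.1. Ccl8 stood at 1.33 to 3.07 in the controls and 2.19 to 24.9 in the libraries labelled knockout, of which only replicate 2 was within the control range. Ccr2 stood at 3.71 to 11.4 and 8.11 to 16.2. Ccl9 stood at 16.7 to 28.2 and 21.3 to 46.0, and Cx3cl1 at 13.5 to 26.9 and 9.05 to 13.8. Fibroblast markers were also higher, with 8 of 12 called, and summed to 51545 to 145903 in the controls and 185707 to 295581 in the libraries labelled knockout. Of the osteoblast and osteoclast markers 9 of 11 were called higher and 0 lower, with a median log2 difference of 2.27, and their sum was 3609.7 to 20509.9 in the controls and 19640.3 to 57239 in the libraries labelled knockout, with overlap. Of the chondrocyte markers 1 of 10 was called higher, of the endothelial markers 1 of 10 and of the dendritic cell markers 1 of 4, and 0 of 6 lymphatic endothelial and 0 of 8 erythroid markers were called. Of the neutrophil markers 0 of 9 tested were called, as were 0 of 7 B and plasma cell markers. Called were 1 of 3 T and NK cell markers (Cd3e, lower) and 1 of 5 eosinophil and mast cell markers (Mcpt4, higher). Of the 3 T and NK cell markers, 2 were below 0 and 1, Cd4 (0.59), above. The sums of that list overlapped (47.7 to 146 in the controls, 48.4 to 206 in the libraries labelled knockout). Cd3d and Cd3g, too low to test, averaged 1.90 and 2.09 in the controls. They averaged 5.27 and 6.45 in the libraries labelled knockout, with replicate 1 highest. Cd3e overlaps Gm48720 on the same strand. The part of these cells in the member values was not tested.

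**Figure D4:**
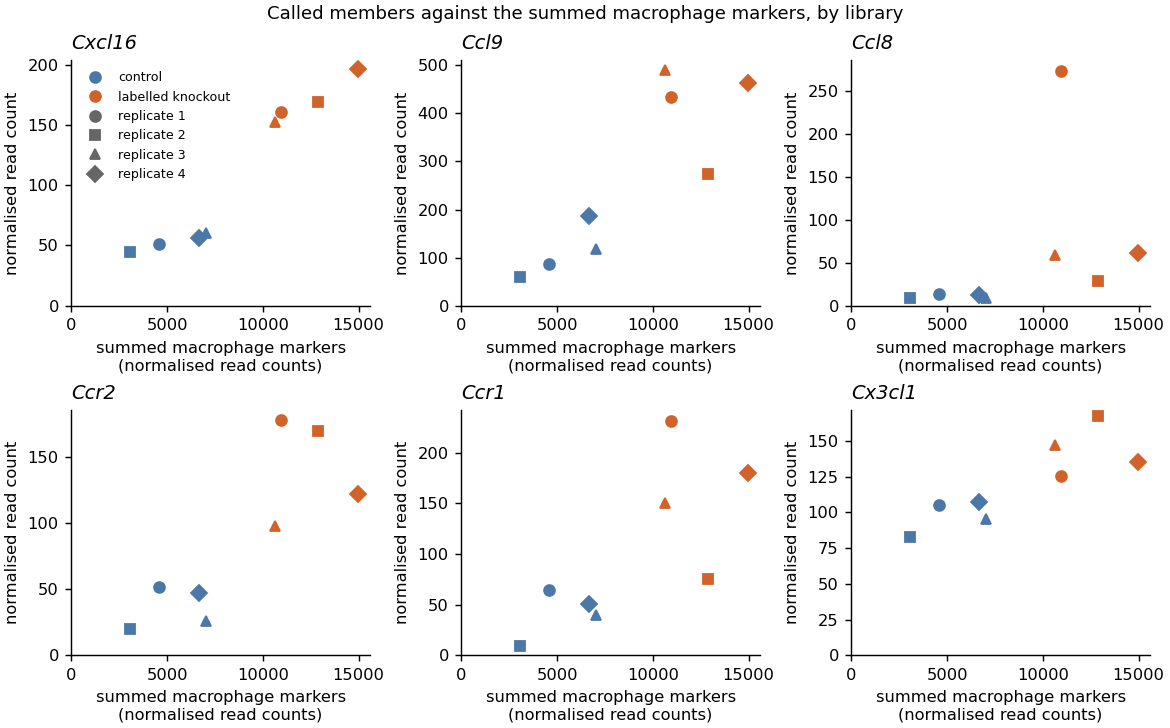
Normalised read count of 6 called members (vertical axes) against the summed normalised read counts of 14 macrophage markers (horizontal axes), 1 point per library, all axes from 0. For Cxcl16 the 8 libraries lie in the same order as the marker sum, from 44.4 to 196, while Ccl8 has 1 library, knockout replicate 1 at 272, far above libraries of like marker sum.

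Other genes of the pathway were taken from lists written with earlier results of these data known. Cx3cr1, the receptor of Cx3cl1, was not called (1.41, SE 0.46, limma adjusted p = 0.0521). Of 29 genes of signalling behind the receptors, 13 were called higher and 0 lower (median 0.53), led by the inhibitory G protein subunit Gnai2 (0.53), the beta subunit Gnb1 (0.49), the PI3-kinase regulator Pik3r5 (0.87) and the kinase Lyn (0.59). Of 18 genes upstream of chemokine transcription, 5 were called higher and 0 lower (median 0.35), against 11.6% higher and 11.6% lower of all tested genes. Those of smallest p were the interleukin-1 receptor Il1r1 (1.11), the TNF receptor Tnfrsf1a (0.83), the NF-kB regulator Nfkbiz (1.05) and the interferon-gamma receptor Ifngr1 (0.56). Of 9 proteases that cut or shed chemokines, 7 were called higher and 0 lower (median 1.59), among them Ctss (1.72), Mmp12 (3.19), Mmp14 (2.28) and Adam10 (0.40), which releases Cxcl16 and Cx3cl1 from the cell surface.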

How the data were processed

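Poly(A) RNA from 8 mouse knee joint libraries was sequenced by the submitters. The deposited table holds gene counts divided by DESeq2 size factors, a signal unit. Per the submitters' processing notes the tools include HISAT2 and featureCounts with build mm10, and the annotation, strand setting, versions and filters are not given in the sources used here. Since the deposited values step in whole reads, reads per gene were recovered by dividing by the value of 1 read (0.855 to 1.10), and 100% came out whole within 0.001. Recovered library totals were 13991000 to 17411617 reads.

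Values were tested as log2(value + 1) with limma 3.58.1 (lmFit, eBayes with trend) on 4 control against 4 libraries labelled knockout, over the 14949 of 20681 genes that reached 10 in 4 or more libraries. P-values were Benjamini-Hochberg adjusted over all of these, called under 0.05. Fold changes on this scale understate changes of low genes. The fit was tested on simulated data. Alternatives were pseudocounts of 0.1 and 5, no filter, a filter at 20, TMM, quantile and muscle-free scaling, edgeR 4.0.16 and DESeq2 1.42.0 on recovered reads, a replicate block, and leaving out each library. The members and lists were chosen with earlier results of these data known. Every library's value is given for members that were called, did not overlap or averaged at least 100 in a group. Of each further list at most 4 genes, those of smallest p, are named, with Loxl2, Acan and Col2a1 as checks. Other names were added after their values were seen. Promoters came from RefSeq and gene spans from GENCODE M21. A result of a further list is not reported here.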

Additional observations from a re-analysis of the deposited data

Results flagged for a closer look

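In 9 of 86 gene and group pairs of members, 1 of the 4 libraries lay apart from the other 3 by Dixon's 95% criterion. Chance gives about 1 in 20 for independent, normally distributed values, which these are not known to be. The 86 pairs cover both groups, while all 9 flagged were in libraries labelled knockout, 5 of them in knockout replicate 1. In knockout replicate 1 these were Ccl8 (272, next 61.6), Cxcl9 (173, next 23.9), Cxcl13 (101, next 14.1), Ccl5 (60.8, next 5.28) and Cxcr3 (21.9, next 5.13). In knockout replicate 3 they were Ccl6 (259.9, next 111), Ccl17 (104, next 7.70) and Ccl22 (44.6, next 11.1). In knockout replicate 2 it was Ccl11 (122, next 101). Of these, Ccl8 was called, and it was also called without replicate 1.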

How the results depend on the processing

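Ccl8, Ccl9, Cxcl16 and Ccr2 were called higher in all 18 alternatives. The number of members called higher, 7, ranged from 4 to 8 when 1 library was left out and from 5 to 10 otherwise. The number called lower, 0, was 1 under quantile normalization (Ccl27a) and 0 to 1 when a library was left out. Calls over all tested genes, 3461, came to 2018 with the replicate number as a block and 1751 to 3841 with a library left out. Same-numbered libraries did not deviate together (correlations 0.213, -0.118, -0.233 and -0.063, and 2 of 8 libraries correlated best with their own number), so the numbers were not taken as pairs. With the replicate block 6 members were called higher and 0 lower. Sign changes occurred for uncalled members only. Ccl24 went to 0.0355 and Pf4 to -0.0303 under muscle-free and quantile scaling respectively, Cxcr4 to -0.19 under quantile normalization, Cxcl13 to -0.27 at a pseudocount of 0.1, and Cxcl12 to -0.0020 by edgeR and -0.0019 by DESeq2. With a library left out, Ccl24 ranged from -0.3167 to 0.2844, Cxcl12 from -0.0802 to 0.192, Pf4 from -0.094 to 0.4211, Cxcr4 from -0.10 to 0.1817, Cxcl9 from -0.3282 to 1.1611 and Cxcl13 from -0.7051 to 1.5177. Cxcl9 and Cxcl13 turned without knockout replicate 1. On recovered reads, edgeR and DESeq2 gave larger values for Cxcl9 (1.49 and 1.51, from 0.55), Cxcl13 (2.01 and 2.03, from 0.42) and Ccl8 (3.23 and 3.25, from 2.63), and Cxcl9 and Cxcl13 were not called by either. The causes were not tested. The 19 low members rest on few reads, so differences in them were mostly not detectable at this depth.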
